A study of Arabidopsis thaliana with 12 samples.

Results

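Glucosinolates are the sulphur-rich defence compounds of Arabidopsis thaliana and its relatives, and camalexin is an antimicrobial indole compound of the same plants. The 49 genes described here make, modify, regulate or carry these compounds. They were taken by gene identifier for their place in the pathway. The list names no threshold on measured values, but it was drawn up with earlier results of these data known. All 49 were found among the 31788 loci of the deposited tables. The list holds 26 genes of the aliphatic branch, 15 of the indolic branch, 3 that serve both branches, 2 transporter genes and 3 camalexin genes. Of these, 44 have a locus listed under their identifier alone, here called a locus of their own, and 5 lie in loci listed with neighbouring genes, here called merged. A locus of its own can still extend beyond its gene, for example those of BCAT4, UGT74C1, GSTF10, GTR1 and GTR2, so their values describe the locus. That of SOT16 covers the same interval as the merged locus of SOT18.

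The plants were whole seedlings aged 14 days, of the mutants pkl, clf and lhp1 and of wild type, and the sample titles list 3 libraries for each. PICKLE, encoded by PKL, is a chromatin remodeller of the CHD3 type, CURLY LEAF (CLF) is a methyltransferase of Polycomb repressive complex PRC2 that places the repressive mark H3K27me3, and LHP1 binds that mark. The labels name no allele, no accession and no line for any of the 4 genotypes, and they do not say whether libraries of a genotype came from separately grown plants, so the spread behind the p-values may be technical. Each of the 3 tables sets 1 mutant against the same wild-type values, so the 3 comparisons share their controls.

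Glucosinolates are built from amino acids in 3 stages. In the aliphatic branch, methionine is first lengthened in the chloroplast by repeated rounds of condensation, isomerisation and decarboxylation. The amino acid is then converted by cytochromes P450 of the CYP79 and CYP83 families to an aldoxime and an activated oxide, which receives sulphur from glutathione, is cleaved, glucosylated and sulphated. In the last stage the side chain is oxidised, hydroxylated or methylated. The indolic branch starts from tryptophan without lengthening, and its first product, indole-3-acetaldoxime, is also the starting point of camalexin. R2R3-MYB transcription factors switch on the branches, MYB28, MYB29 and MYB76 the aliphatic one and MYB34, MYB51 and MYB122 the indolic one. In intact tissue the compounds are stored apart from myrosinases, the enzymes that break them down on damage.

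Several members are neighbouring copies of one another, and how far reads can tell such copies apart bears on their values. The stretches shown here, each of 90 coding bases, were chosen where the identity of an aligned window was nearest to that of the whole coding sequence, and capitals mark the bases that differ between the copies. They were read from the reference genome TAIR10.1 with the RefSeq annotation. Positions count from the start codon, at 85 to 174 in CYP79F1 and 82 to 171 in CYP79F2 on chromosome 1, 214 to 303 in MAM1 and 130 to 219 in MAM3 on chromosome 5, and 20 to 109 in CYP71A12 and CYP71A13 on chromosome 2.
CYP79F1: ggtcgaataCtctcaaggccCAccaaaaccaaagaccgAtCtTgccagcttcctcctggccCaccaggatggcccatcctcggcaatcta
CYP79F2: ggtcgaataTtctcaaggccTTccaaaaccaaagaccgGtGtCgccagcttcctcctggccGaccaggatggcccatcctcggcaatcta
MAM1: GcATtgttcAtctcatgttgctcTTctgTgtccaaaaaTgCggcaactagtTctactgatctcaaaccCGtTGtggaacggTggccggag
MAM3: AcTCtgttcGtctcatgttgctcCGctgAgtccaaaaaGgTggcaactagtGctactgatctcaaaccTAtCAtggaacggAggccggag
CYP71A12: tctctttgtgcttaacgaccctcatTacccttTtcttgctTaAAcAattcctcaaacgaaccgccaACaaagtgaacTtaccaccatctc
CYP71A13: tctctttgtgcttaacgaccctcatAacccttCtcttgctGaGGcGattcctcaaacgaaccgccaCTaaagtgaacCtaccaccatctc

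Within these windows CYP79F1 and CYP79F2 differ at 7 bases, MAM1 and MAM3 at 15, and CYP71A12 and CYP71A13 at 9. Over the whole coding sequence the identity was 91.9% for CYP79F1 and CYP79F2, whose annotated genes lie 1183 bases apart. It was 83.8% for MAM1 and MAM3, 90.4% for CYP71A12 and CYP71A13, 92.5% for the methyltransferase genes IGMT1 and IGMT2, and 79.6% for FMO GS-OX2 and FMO GS-OX4. Of all stretches of 50 coding bases, 3.44% of those of CYP79F1 also occur in CYP79F2, 3.63% of those of IGMT1 in IGMT2, 0.692% of those of CYP71A12 in CYP71A13 and none of those of MAM1 in MAM3. No source used here gives the read length or how reads matching several copies were handled, so the values of the CYP79F, CYP71A and IGMT copies carry an uncertainty of unknown size.

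Expression is given as the authors' FPKM, a fragment count divided by transcript length and library size, with 1 value per group. A gene was called where the authors' test had been carried out and its deposited q-value was under 0.05, and "rose" and "fell" are used of such genes alone. Log2 fold changes were computed as mutant over wild type. The figure after ± is an implied standard error, read back from the deposited p-value and, at the smallest p of 5e-05, from the test statistic. Its median over the tested members was 0.14 in pkl, 0.14 in clf and 0.14 in lhp1. As a check of the labels, PKL stood at 6.83 FPKM in pkl against 20.8 in wild type and was called. CLF stood at 0.264 FPKM in clf against 8.37 in wild type, a difference that missed the threshold, and LHP1 was listed at 0 in lhp1 against 12.1 in wild type and was called. Of 4 leaf mesophyll markers, 0 were called in pkl and clf, and in lhp1 LHCB2.1 was called higher and LHCA3 lower. Their median log2((FPKM + 1)/(FPKM + 1)) was 0.036 in pkl, 0.069 in clf and 0.032 in lhp1, with 2 markers above and 2 below wild type in each mutant. Their sum was 15031 FPKM in pkl, 11400 in clf and 10075.5 in lhp1, against 14130 in wild type. Most of it was RBCS1A, at 10608 FPKM in clf and 9334 in lhp1 against 13319 in wild type, without a call. All 17 markers of leaf, root, phloem, guard cell and flower had values above 0 in every genotype.

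In pkl seedlings most called aliphatic genes rose, whereas most called indolic genes and both single-locus camalexin genes fell. The rises included MAM3, BCAT4 and CYP79F1 of early aliphatic synthesis, and the falls CYP79B2, CYP83B1 and MYB51 of the indolic branch. Of 42 tested members with a locus of their own, 7 rose (16.7%) and 11 fell (26.2%), beside 7% higher and 7.03% lower among all 17344 tested single-gene loci. In the aliphatic branch 6 of 21 rose and 3 fell, with a median log2((FPKM + 1)/(FPKM + 1)) of 0.24. Among 14 indolic genes 1 rose and 6 fell, with a median of -0.31; the median of all tested single-gene loci was 0.013. Of the 42 members, 2 rose and 7 fell by at least 1.5-fold, beside 4.27% higher and 4.71% lower among all loci. The share of members that rose at that size was thus close to that of all loci. By branch, 2 aliphatic genes rose and 2 fell by as much, so the aliphatic majority of rises was not seen at that size, and 0 indolic genes rose and 3 fell. Genes of a branch are not replicates, so the difference between the branches was not tested.

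In clf seedlings the rises were spread over both branches, and the 5 falls were the camalexin genes PAD3 and CYP71A12 and 1 copy each of the neighbouring pairs of MAM, CYP79F and GSTF genes. Of 43 tested members 11 rose (25.6%) and 5 fell (11.6%), beside 7.48% higher and 5.49% lower among 17345 loci. The aliphatic branch had 7 rises and 2 falls among 22, with a median of 0.091, and the indolic branch 3 rises and 1 fall among 14, with a median of -0.002, against -0.0036 for all loci. Of the 43 members, 6 rose and 3 fell by at least 1.5-fold, beside 5.1% higher and 3.22% lower among all loci.

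In lhp1 seedlings every called aliphatic gene rose, and the indolic branch had as many rises as falls. Of 43 tested members 9 rose (20.9%) and 5 fell (11.6%), beside 11.6% higher and 10.7% lower among 17484 loci. By the call alone, the share of members that fell was thus close to that of all loci. The aliphatic branch had 5 rises and 0 falls among 22, with a median of 0.24, and the indolic branch 3 of each among 14, with a median of -0.11, against 0.032 for all loci. Of the 43, 5 rose by at least 1.5-fold, 1 of them aliphatic, beside 8.16% of all loci. All 5 falls reached that size, which is 11.6% of the 43, beside 6.37% of all loci.

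**Figure D1:**
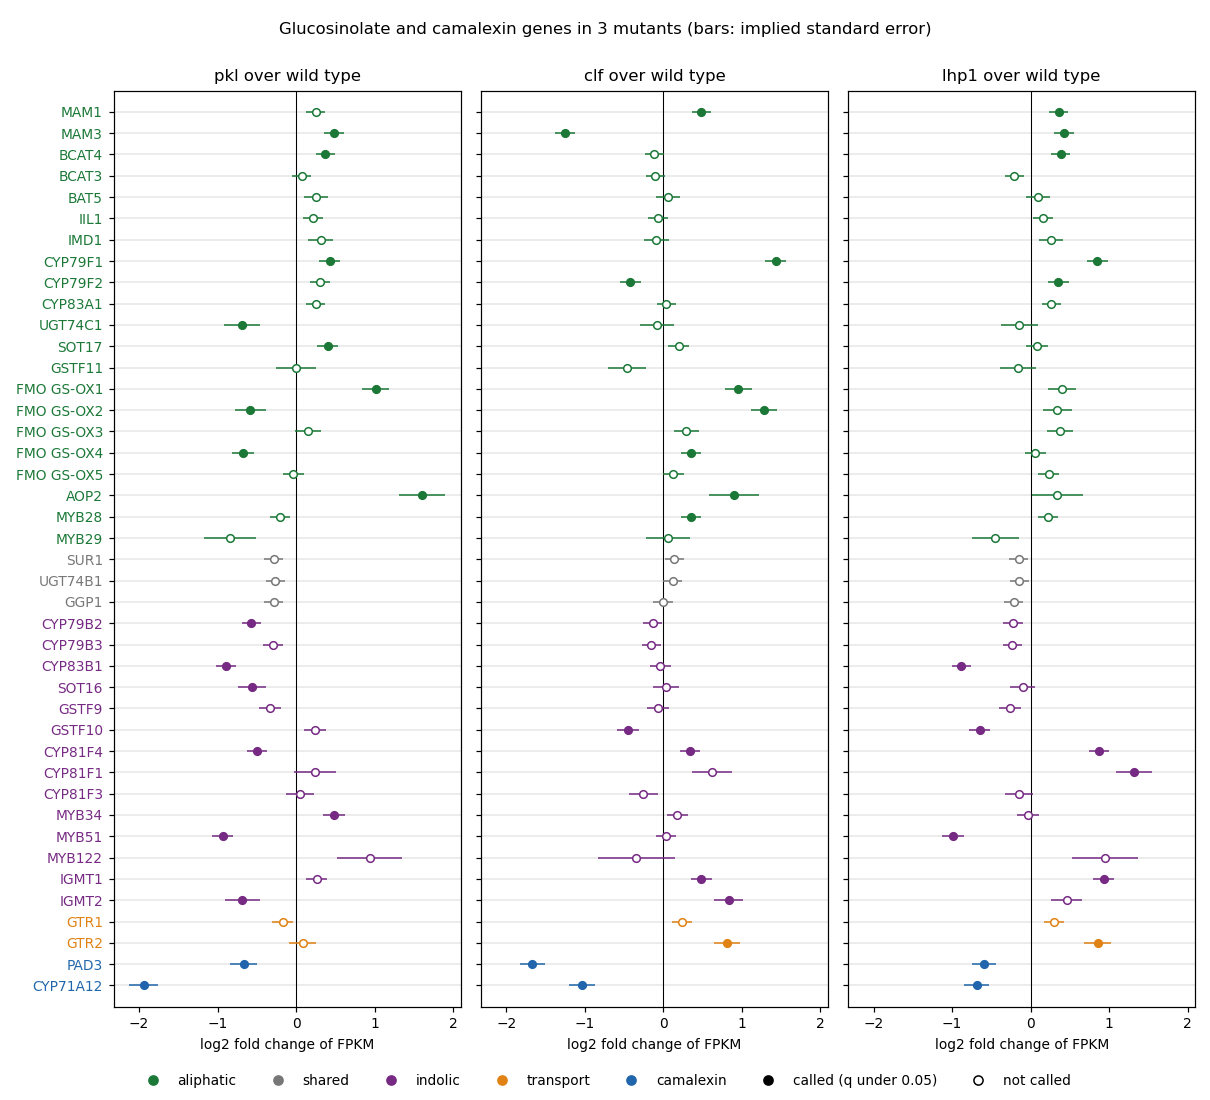
Log2 fold change of FPKM (horizontal axis) of 42 members with a locus of their own in pkl, clf and lhp1 over wild type, coloured by branch, with bars of 1 implied standard error; filled points were called at q under 0.05. AOP3 and MYB76, near 0 FPKM in wild type, are left out. PAD3 and CYP71A12, at the bottom, stand below 0 in all 3 panels and CYP79F1 above 0.

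Markers of other tissues moved with the genotypes. The 4 flower markers AP3, PI, AG and AP1 summed to 47.6 FPKM in clf and 97.0 in lhp1, against 1.49 in wild type, and all 4 were called higher in both; in pkl they summed to 1.94 FPKM and 0 of the 3 tested were called. The phloem marker SUC2, a sucrose transporter gene, fell to 65.9 FPKM in pkl against 134 in wild type. FAMA, a regulator of guard cells and myrosin cells, fell to 11.1 FPKM in pkl against 15.5 in wild type. The phloem and guard cell lists hold 2 markers each, and the other of each stood below wild type in pkl without a call. Root markers summed to 95.0 FPKM in pkl, 51.7 in clf and 68.9 in lhp1, against 75.8 in wild type, with 2 of 5 called higher in pkl and 1 lower in clf. They did not move together in pkl. The calls there were EXPA7, at 50.1 FPKM in pkl against 22.3 in wild type, and the weakly expressed PLT1. CASP1 and RHD6 stood below wild type in pkl without a call. The part of these shifts in the results below was not tested. In whole seedlings, fewer cells of a type and less RNA per cell cannot be told apart.

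**Figure D2:**
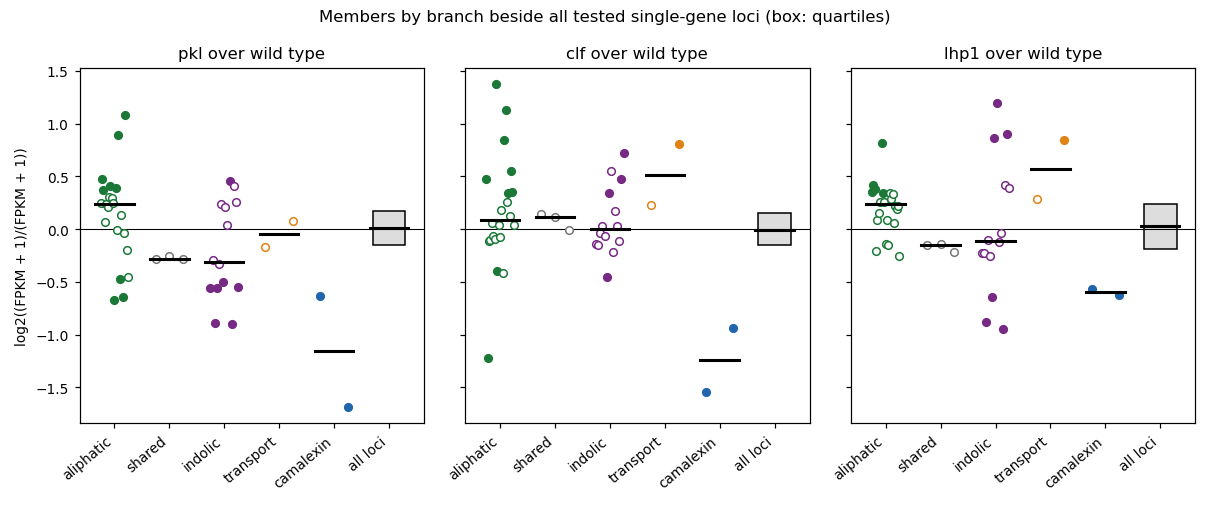
Log2((FPKM + 1)/(FPKM + 1)) of members by branch (horizontal axis) in pkl, clf and lhp1 over wild type; filled points were called, black lines are medians over tested members with a locus of their own, and the box gives the quartiles of all tested single-gene loci. AOP3 is left out of the points but counted in the clf and lhp1 medians. In pkl the aliphatic median lies above 0 and the indolic median below it.

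Among the genes of chain lengthening, MAM1 rose and MAM3 fell in clf. These neighbours encode methylthioalkylmalate synthases, which condense the lengthening chain with acetyl-CoA, MAM3 being the copy that also makes the longest chains. MAM1 (AT5G23010, chr5:7703092-7706896) had 105 FPKM in pkl, 124 in clf and 114 in lhp1, against 88.5 in wild type. Its log2 fold change was 0.48 ± 0.12 in clf and 0.36 ± 0.12 in lhp1, both called, and 0.25 ± 0.12 in pkl, not called. MAM3 (AT5G23020, chr5:7718121-7721839) had 83.9 FPKM in pkl, 25.2 in clf and 80.4 in lhp1, against 60.0 in wild type. It was thus lowest in clf, where it fell by 1.25 on the log2 scale with an implied standard error of 0.13, and it rose in pkl (0.48 ± 0.12) and lhp1 (0.42 ± 0.13). The ratio of MAM1 to MAM3 was 1.25 in pkl, 4.90 in clf and 1.41 in lhp1, against 1.47 in wild type.

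BCAT4 (AT3G19710, chr3:6843662-6849497), for the aminotransferase that takes methionine into the lengthening cycle, had 129.8 FPKM in pkl, 92.7 in clf and 131 in lhp1, against 100.4 in wild type. It rose in pkl (0.37 ± 0.12) and lhp1 (0.39 ± 0.12), and its clf value lay below that of wild type without a call. The 4 other single-locus genes of this stage were called in no mutant. They are BCAT3 (AT3G49680), for the aminotransferase that closes the cycle, BAT5 (AT4G12030), for a transporter of keto acids into the chloroplast, IIL1 (AT4G13430), for the large isomerase subunit, and IMD1 (AT5G14200), for a dehydrogenase. Their log2 fold changes ran from 0.07 to 0.31 in pkl, from -0.10 to 0.062 in clf and from -0.21 to 0.26 in lhp1. All 7 single-locus lengthening genes had values above wild type in pkl (2 called) and 6 had so in lhp1 (3 called), whereas 5 stood below it in clf. Of those 5, MAM3 alone was called, and the others lay within 1 implied standard error of 0. The share of all loci above wild type was not computed.

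The first step of the core, from lengthened methionine to aldoxime, is made by CYP79F1 and CYP79F2. CYP79F1 (AT1G16410, chr1:5608807-5611426) acts on chains of all lengths and had 23.1 FPKM in pkl, 46.1 in clf and 30.9 in lhp1, against 17.1 in wild type. Its log2 fold change was 0.43 ± 0.14 in pkl, 1.43 ± 0.13 in clf and 0.85 ± 0.13 in lhp1, and it was the 1 member that rose in all 3. Its neighbour CYP79F2 (AT1G16400, chr1:5605159-5607473) prefers long chains and had 28.0 FPKM in pkl, 16.9 in clf and 28.9 in lhp1, against 22.6 in wild type. In clf it fell (-0.42 ± 0.14), in lhp1 it rose (0.35 ± 0.13), and in pkl it was not called (0.31 ± 0.13). The ratio of CYP79F1 to CYP79F2 was 0.824 in pkl, 2.72 in clf and 1.07 in lhp1, against 0.757 in wild type. CYP79F2 thus had the higher value in pkl and wild type and CYP79F1 in clf, and the copies were close to equal in lhp1. Copies were not tested against each other.

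**Figure D3:**
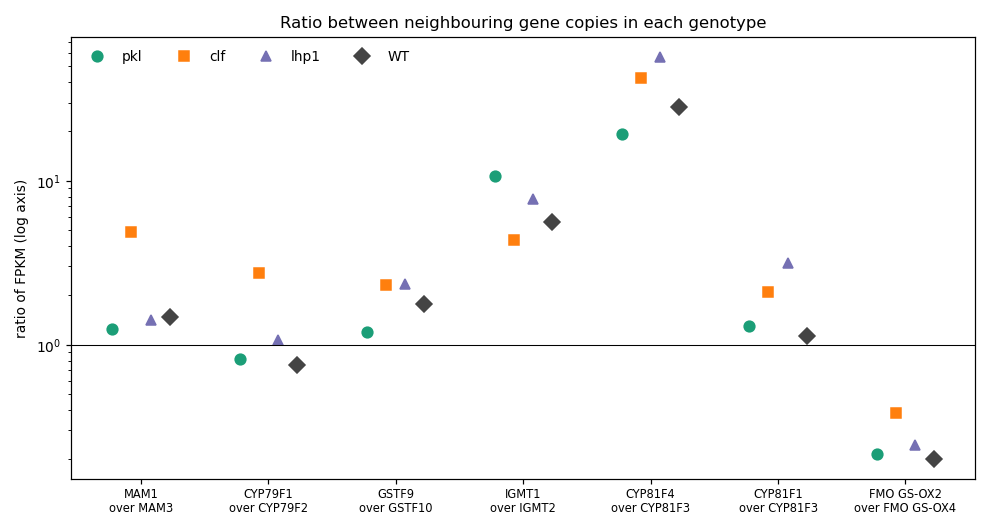
Ratio of FPKM between neighbouring gene copies (vertical log axis) in pkl, clf, lhp1 and wild type, 1 value per genotype with no replicate error. The clf points of MAM1 over MAM3 and of CYP79F1 over CYP79F2, at 4.90 and 2.72, are the highest of their pairs.

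Later core genes of the aliphatic branch changed in pkl alone by the call, though whether their changes differ between mutants was not tested. SOT17 (AT1G18590), for a sulphotransferase of the last core step, had 29.8 FPKM in pkl, 25.8 in clf and 24.0 in lhp1, against 22.6 in wild type, and rose in pkl (0.40 ± 0.14). UGT74C1 (AT2G31790), for a glucosyltransferase, had 25.4 FPKM in pkl, 38.8 in clf and 37.1 in lhp1, against 41.0 in wild type, and fell in pkl (-0.69 ± 0.23), against the direction of most of its branch. CYP83A1 (AT4G13770), which oxidises the aldoximes, had 118 FPKM in pkl, 102 in clf and 119 in lhp1, against 99.2 in wild type, and GSTF11 (AT3G03190), for a glutathione transferase, 10.9 FPKM in pkl, 7.92 in clf and 9.73 in lhp1, against 10.9 in wild type; neither was called in any mutant. The 3 genes that serve both branches were also called in none, and in pkl all 3 stood below wild type by a similar amount. SUR1 (AT2G20610), for the lyase that cuts the sulphur conjugate, had a log2 fold change of -0.29 ± 0.12 in pkl, the glucosyltransferase gene UGT74B1 (AT1G24100) of -0.26 ± 0.13, and GGP1 (AT4G30530), for a peptidase that trims the glutathione conjugate, of -0.29 ± 0.12.

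Of the side-chain oxidation genes, FMO GS-OX2 and FMO GS-OX4 fell in pkl and rose in clf, and FMO GS-OX1 rose in both. The FMO GS-OX enzymes are monooxygenases that turn methylthioalkyl into methylsulphinylalkyl glucosinolates. FMO GS-OX1 (AT1G65860) had 10.8 FPKM in pkl, 10.4 in clf and 7.03 in lhp1, against 5.34 in wild type, and rose in pkl (1.01 ± 0.17) and clf (0.96 ± 0.17). FMO GS-OX2 (AT1G62540, chr1:23151460-23156473) had 3.35 FPKM in pkl, 12.2 in clf and 6.37 in lhp1, against 5.02 in wild type. It fell in pkl (-0.58 ± 0.20) and rose in clf (1.28 ± 0.17). FMO GS-OX4 (AT1G62570, chr1:23169136-23172105), in the same gene cluster, had 15.5 FPKM in pkl, 31.8 in clf and 26.0 in lhp1, against 24.9 in wild type, and likewise fell in pkl (-0.68 ± 0.14) and rose in clf (0.35 ± 0.13); the clf call was lost when p-values were adjusted over that table alone. FMO GS-OX3 (AT1G62560) and FMO GS-OX5 (AT1G12140) were called in no mutant, with log2 fold changes between -0.037 in pkl and 0.37 in lhp1.

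AOP2 and AOP3 are adjacent genes for dioxygenases that make alkenyl and hydroxyalkyl side chains. In the RefSeq annotation of the reference accession, AOP2 is a transcribed pseudogene. AOP2 (AT4G03060, chr4:1351703-1354011) was weakly expressed at 3.65 FPKM in pkl, 2.23 in clf and 1.52 in lhp1, against 1.199 in wild type, and rose in pkl (1.61 ± 0.29) and clf (0.89 ± 0.32). AOP3 (AT4G03050, chr4:1343968-1346501) stood at 0.0113 FPKM in wild type and was listed at 0 in pkl, where it was not tested. It had 0.762 FPKM in clf and 1.79 in lhp1, but neither was called, with implied standard errors of 5.27 and 6.34 on the log2 scale, so no size can be put on the difference. Flower markers, given above, were raised in the same 2 genotypes, and a link between them and AOP3 was not tested. All 7 side-chain genes of the aliphatic branch stood above wild type in clf, 4 of them called, and all 7 in lhp1, with 0 called. These counts include AOP3 and, in lhp1, FMO GS-OX4 at 0.062 ± 0.13. The share of all loci above wild type was not computed.

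**Figure D4:**
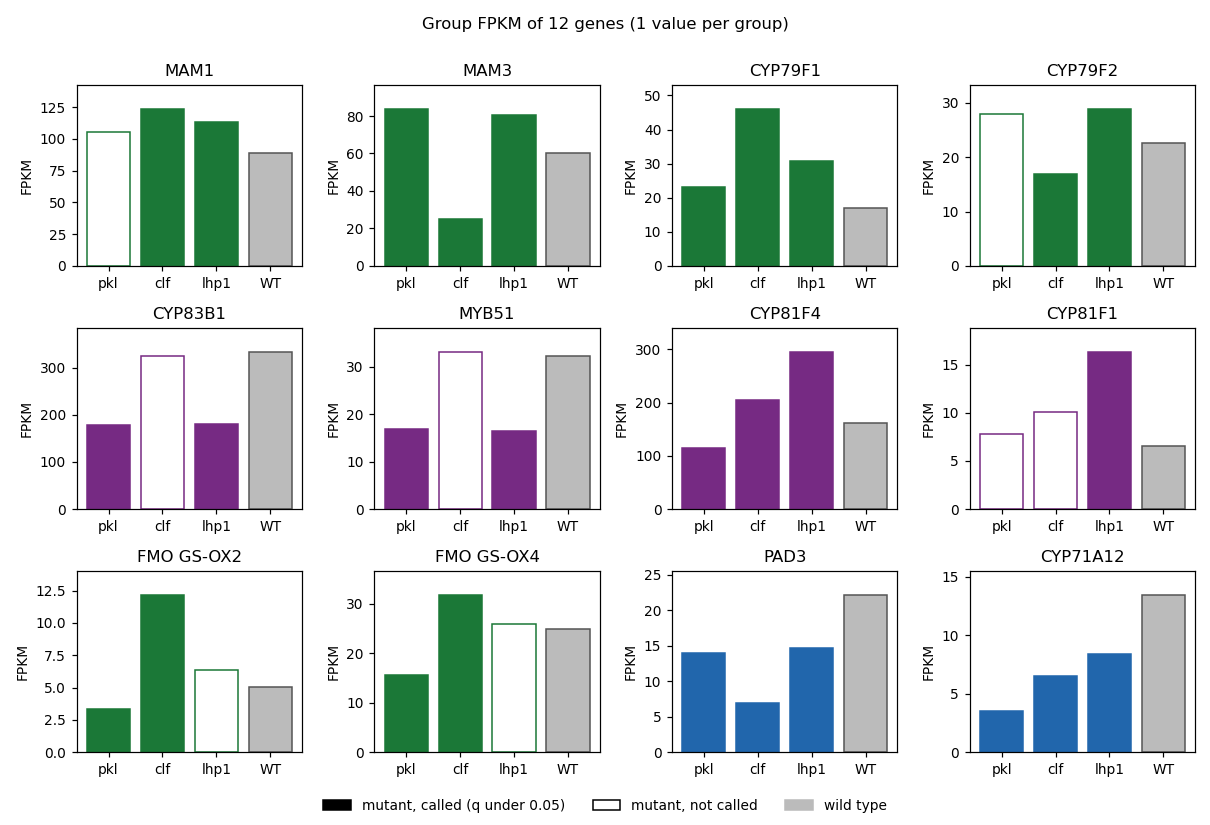
Authors' FPKM (vertical axes from 0, 1 value per group, no replicate error) of 12 members in pkl, clf, lhp1 and wild type; filled coloured bars were called, open bars were not, and grey is wild type. CYP83B1 and MYB51 stand low in pkl and lhp1, FMO GS-OX2 and FMO GS-OX4 are lowest in pkl and highest in clf, and PAD3 and CYP71A12 are below wild type in every mutant.

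Of the aliphatic regulators, MYB28 rose in clf and was the 1 call. MYB28 (AT5G61420, chr5:24689151-24691095) had 42.0 FPKM in pkl, 61.9 in clf and 56.3 in lhp1, against 48.3 in wild type, and rose in clf (0.36 ± 0.13). In pkl, where 6 aliphatic genes rose, its value lay below wild type (-0.20 ± 0.13) without a call. MYB29 (AT5G07690) had 0.869 FPKM in pkl, 1.62 in clf and 1.14 in lhp1, against 1.55 in wild type, without a call, and MYB76 (AT5G07700), its neighbour, was at most 0.208 FPKM in any genotype and was tested in none.

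Of the 6 indolic core genes with a locus of their own, CYP79B2, CYP83B1 and SOT16 fell in pkl. CYP83B1 (AT4G31500, chr4:15273471-15275310) makes the committed step from indole-3-acetaldoxime to indolic glucosinolates. It had 179 FPKM in pkl, 325 in clf and 181 in lhp1, against 334 in wild type, a log2 fold change of -0.90 ± 0.13 in pkl and -0.88 ± 0.13 in lhp1, both called, and of -0.037 ± 0.13 in clf, not called. CYP79B2 (AT4G39950, chr4:18525117-18527579), which makes the aldoxime from tryptophan, had 47.6 FPKM in pkl, 64.3 in clf and 60.5 in lhp1, against 70.7 in wild type, and fell in pkl (-0.57 ± 0.12). Its paralogue CYP79B3 (AT2G22330) had 47.2 FPKM in pkl, 52.0 in clf and 49.3 in lhp1, against 57.9 in wild type, and missed the threshold in pkl (-0.30 ± 0.12). The sulphotransferase gene SOT16 (AT1G74100) had 46.4 FPKM in pkl, 70.2 in clf and 64.0 in lhp1, against 68.6 in wild type, and fell in pkl (-0.56 ± 0.18). SOT16 and its convergent neighbour SOT18 were given loci over the same interval, so reads of the pair may not have been separated.

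The glutathione transferase genes GSTF9 and GSTF10, neighbours on chromosome 2, were the highest members in wild type. GSTF9 (AT2G30860) had 1314 FPKM in pkl, 1580.4 in clf and 1383 in lhp1, against 1652 in wild type, and was called in no mutant. GSTF10 (AT2G30870) had 1099 FPKM in pkl, 680.1 in clf and 594 in lhp1, against 929 in wild type, and fell in clf (-0.45 ± 0.13) and lhp1 (-0.65 ± 0.14). In pkl GSTF10 stood above wild type (0.24 ± 0.14) without a call, unlike the other 5 core genes. Over the 6 core genes of the indolic branch, 3 fell in pkl, 1 in clf and 2 in lhp1, and none rose; the median was -0.44 in pkl, -0.10 in clf and -0.24 in lhp1, beside all-locus medians within 0.032 of 0.

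Of the 5 indolic side-chain genes, 3 rose in clf and 3 in lhp1, and 2 fell in pkl. CYP81F enzymes hydroxylate the indole ring, and CYP81F4 acts at the ring nitrogen. CYP81F4 (AT4G37410, chr4:17590769-17592920) had 114 FPKM in pkl, 205 in clf and 295 in lhp1, against 162 in wild type. It fell in pkl (-0.50 ± 0.12) and rose in clf (0.34 ± 0.13) and lhp1 (0.87 ± 0.13); the clf call was lost when p-values were adjusted over that table alone. CYP81F1 (AT4G37430, chr4:17597110-17598958), in the same cluster, had 7.74 FPKM in pkl, 10.1 in clf and 16.3 in lhp1, against 6.56 in wild type, and rose in lhp1 (1.32 ± 0.22). CYP81F3 (AT4G37400), also of that cluster, was called in no mutant, at 5.96 FPKM in pkl, 4.83 in clf and 5.21 in lhp1, against 5.77 in wild type. The ratio of CYP81F4 to CYP81F3 was 19.2 in pkl, 42.5 in clf and 56.6 in lhp1, against 28.1 in wild type.

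IGMT enzymes methylate the hydroxylated indole ring, and IGMT1 to IGMT4 form a cluster on chromosome 1. IGMT1 (AT1G21100) had 34.9 FPKM in pkl, 40.7 in clf and 55.4 in lhp1, against 29.1 in wild type, and rose in clf (0.49 ± 0.13) and lhp1 (0.93 ± 0.13). IGMT2 (AT1G21120) had 3.25 FPKM in pkl, 9.29 in clf and 7.17 in lhp1, against 5.22 in wild type, fell in pkl (-0.69 ± 0.22) and rose in clf (0.83 ± 0.19). The most abundant copy in wild type was IGMT4 (AT1G21130), which is not among the 49 and whose coding sequence is 93% identical to that of IGMT1. It had 205 FPKM in pkl, 201 in clf and 56.7 in lhp1, against 326 in wild type, and fell in all 3, by 2.52 on the log2 scale in lhp1. Of the 50-base stretches of IGMT1, 9.41% also occur in IGMT4, the largest share of the pairs compared. How reads of such stretches were assigned is not known, so the opposite calls of this pair in lhp1 are uncertain.

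Of the indolic regulators, MYB51 fell and MYB34 rose in pkl. MYB51 (AT1G18570, chr1:6389411-6391267) had 16.9 FPKM in pkl, 33.2 in clf and 16.4 in lhp1, against 32.4 in wild type, and fell in pkl (-0.94 ± 0.14) and lhp1 (-0.98 ± 0.14), the same genotypes in which CYP83B1 fell. MYB34 (AT5G60890, chr5:24494378-24496351) had 28.9 FPKM in pkl, 23.5 in clf and 20.3 in lhp1, against 20.8 in wild type, and rose in pkl (0.48 ± 0.14). The ratio of MYB34 to MYB51 was 1.71 in pkl, 0.708 in clf and 1.24 in lhp1, against 0.640 in wild type. MYB122 (AT1G74080) had 1.07 FPKM in pkl, 0.440 in clf and 1.08 in lhp1, against 0.558 in wild type, without a call, with implied standard errors of 0.42 or more on the log2 scale.

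Of the importer genes that load glucosinolates into the phloem, GTR2 rose and GTR1 was not called. GTR2 (AT5G62680, chr5:25159125-25168060) had 66.7 FPKM in pkl, 111 in clf and 114 in lhp1, against 63.0 in wild type, and rose in clf (0.81 ± 0.17) and lhp1 (0.86 ± 0.17). The annotated gene begins at 25165137, well inside that locus. GTR1 (AT3G47960, chr3:17692676-17700833) had 35.0 FPKM in pkl, 46.5 in clf and 48.4 in lhp1, against 39.4 in wild type. Its values in clf and lhp1 lay above wild type, with log2 fold changes of 0.24 ± 0.13 and 0.30 ± 0.13. Neither of the 2 phloem markers was called in clf or lhp1, with SUC2 at 151 FPKM in clf and 129.8 in lhp1 against 134 in wild type.

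Both camalexin genes with a locus of their own fell in every mutant. PAD3 (AT3G26830, chr3:9887948-9889759), for the cytochrome P450 of the last step, had 14.0 FPKM in pkl, 6.98 in clf and 14.7 in lhp1, against 22.2 in wild type. Its log2 fold change was -0.67 ± 0.17 in pkl, -1.67 ± 0.16 in clf and -0.60 ± 0.15 in lhp1. CYP71A12 (AT2G30750, chr2:13099336-13101413), for an enzyme that turns the aldoxime into indole-3-acetonitrile, had 3.50 FPKM in pkl, 6.55 in clf and 8.34 in lhp1, against 13.4 in wild type, with log2 fold changes of -1.94 ± 0.18 in pkl, -1.04 ± 0.16 in clf and -0.69 ± 0.16 in lhp1. PAD3 was thus lowest in clf and CYP71A12 in pkl. WRKY33 (AT2G38470), a transcription factor that activates PAD3 on infection, had 22.6 FPKM in pkl, 72.7 in clf and 48.2 in lhp1, against 28.0 in wild type, and rose in clf and lhp1, where PAD3 fell.

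Members in merged loci cannot be separated from the genes they share a locus with, and their values describe the locus. CYP81F2 (AT5G57220), merged with AT5G57230, had 25.2 FPKM in pkl, 36.2 in clf and 23.0 in lhp1, against 42.7 in wild type, and the locus fell in pkl (-0.76 ± 0.20) and lhp1 (-0.89 ± 0.17), whereas CYP81F1 and CYP81F4 rose in lhp1. The locus of CYP71A13 (AT2G30770) had 2.13 FPKM in pkl, 0.771 in clf and 0.774 in lhp1, against 3.66 in wild type. It was called lower in clf (-2.25 ± 0.36), and in lhp1 a near-equal fold change missed the threshold with a wider error (-2.24 ± 1.36). The loci of the isomerase subunit genes IPMI1 (AT3G58990) and IPMI2 (AT2G43100) and of the sulphotransferase gene SOT18 (AT1G74090) were called in no mutant.

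Across the 3 mutants, 25 of the 43 single-locus members tested in any mutant were called at least once (58.1%), beside 31.5% of the 17789 single-gene loci so tested. With the untested MYB76, 19 of 44 were called in none. The 19 comprised 11 aliphatic, 4 indolic, 3 shared and 1 transporter gene. CYP79F1, PAD3 and CYP71A12 were called in 1 direction in all 3 mutants (6.98% of the 43, beside 2.40% of all such loci). Another 6 members rose in 1 mutant and fell in another, which is 14% of the 43, beside 2.48% of all. MAM3 and CYP79F2 fell in clf and rose elsewhere, and CYP81F4, FMO GS-OX2, FMO GS-OX4 and IGMT2 fell in pkl and rose elsewhere. At q under 0.01 MAM3 and CYP81F4 alone kept calls in both directions, and the share of all loci under that rule was not computed. CYP79F2 and IGMT2 are also copies whose values carry the uncertainty of read assignment given above. Because the comparisons share their wild-type libraries, calls of a member in several mutants are not independent of one another. Neither these shares nor those given for each mutant were matched for expression level, on which the implied standard error depends. In pkl its median over all loci was 0.622 below 1 FPKM and 0.142 at 10 to 100 FPKM. How much of the difference from all loci goes with expression level was not tested.

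The 250 bases upstream of each annotated gene start were read from TAIR10.1 for the 48 members annotated as protein-coding. They were searched on both strands for 5 motifs, which can overlap one another: the G-box CACGTG bound by MYC factors, the W-box core TTGACC or its form TTGACT bound by WRKY factors, the telobox AAACCCTA and the repeat GAGAGA known from Polycomb target sites, and the AC element in the forms ACCTACC or else ACCAACC or else ACCTAAC bound by R2R3-MYB factors. An AC element stood in 8 of 25 aliphatic promoters (32%) and 1 of 15 indolic ones (6.67%), against 6.12% of 27443 protein-coding promoters. Over all members it stood in 11 of 48 (22.9%), among them SUR1 and UGT74B1, which serve both branches. The other 4 motifs stood in 3 of 48 member promoters for the G-box (6.25%, against 6.49% of all), 11 for the W-box core (22.9% against 28.4%), 1 for the telobox (2.08% against 4.49%) and 6 for the repeat GAGAGA (12.5% against 20.6%). The 8 aliphatic promoters with an AC element were those of BAT5, IIL1, IPMI1, IPMI2, CYP79F2, CYP83A1, SOT17 and FMO GS-OX1. A match describes letters in this window and is not evidence of binding.

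Promoters are shown with an AC element from each stage of the aliphatic branch, beside that of CYP79F1, the neighbour of CYP79F2, which has none. All run 5′ to 3′ on the strand of the gene and end at the base before the annotated start; capitals mark the AC element, on either strand. They lie on TAIR10.1 at chr4:7210557-7210806 (plus strand, BAT5), chr1:5604794-5605043 (plus strand, CYP79F2), chr1:5608432-5608681 (plus strand, CYP79F1), chr1:6398281-6398530 (plus strand, SOT17) and chr1:24502777-24503026 (minus strand, FMO GS-OX1).
BAT5: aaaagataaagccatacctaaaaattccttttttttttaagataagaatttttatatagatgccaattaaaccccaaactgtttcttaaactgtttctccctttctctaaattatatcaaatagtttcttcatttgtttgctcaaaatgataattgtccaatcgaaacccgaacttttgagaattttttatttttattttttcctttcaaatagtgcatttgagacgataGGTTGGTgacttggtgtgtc
CYP79F2: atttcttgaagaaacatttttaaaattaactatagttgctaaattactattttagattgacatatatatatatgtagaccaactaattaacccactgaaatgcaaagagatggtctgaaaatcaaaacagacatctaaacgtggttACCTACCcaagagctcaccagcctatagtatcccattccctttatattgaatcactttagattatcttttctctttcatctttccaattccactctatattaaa
CYP79F1: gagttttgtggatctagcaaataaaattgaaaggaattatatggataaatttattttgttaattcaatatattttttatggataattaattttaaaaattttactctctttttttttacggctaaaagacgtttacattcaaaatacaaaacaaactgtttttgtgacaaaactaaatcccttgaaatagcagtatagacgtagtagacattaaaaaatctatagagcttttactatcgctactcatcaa
SOT17: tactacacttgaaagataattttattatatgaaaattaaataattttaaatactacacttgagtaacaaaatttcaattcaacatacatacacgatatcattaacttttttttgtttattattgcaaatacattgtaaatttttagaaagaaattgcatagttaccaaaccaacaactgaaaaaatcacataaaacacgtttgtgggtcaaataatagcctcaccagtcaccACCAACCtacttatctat
FMO GS-OX1: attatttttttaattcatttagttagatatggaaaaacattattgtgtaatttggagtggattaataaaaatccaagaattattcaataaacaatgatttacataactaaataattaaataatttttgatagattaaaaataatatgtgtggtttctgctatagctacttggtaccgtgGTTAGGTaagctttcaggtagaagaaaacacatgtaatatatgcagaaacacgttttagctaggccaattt

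Among these, SOT17 and FMO GS-OX1 rose in pkl, BAT5 was called in no mutant, and CYP79F2 and CYP79F1 moved in opposite directions in clf. An AC element was present beside genes that rose, fell and were not called.

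Other genes of the pathway were taken from a further list of 31, of which 29 have a locus of their own. Over all single-gene loci, as given above, 7% rose and 7.03% fell in pkl, 7.48% and 5.49% in clf, and 11.6% and 10.7% in lhp1, and the groups of the list are too small for a share to be set closely against these. In the synthesis group 4 of 12 tested rose and 3 fell in pkl, 3 rose and 2 fell in clf, and 5 rose and 5 fell in lhp1. GSTU20, for the main glutathione transferase of aliphatic synthesis, rose in all 3, with 331 FPKM in pkl, 305 in clf and 297 in lhp1, against 198 in wild type. GSL-OH, for an enzyme that hydroxylates aliphatic side chains, rose in all 3 too, with 678 FPKM in pkl, 634 in clf and 749 in lhp1, against 469 in wild type, as did IGMT5, with 67.2 FPKM in pkl, 66.7 in clf and 76.5 in lhp1, against 48.1 in wild type. ASA1, for the first enzyme of tryptophan synthesis, fell in all 3, with 36.9 FPKM in pkl, 44.5 in clf and 31.3 in lhp1, against 56.0 in wild type; its clf call was lost when p-values were adjusted over that table alone. APK2, for a kinase that supplies the sulphate donor, had 56.8 FPKM in pkl, 72.8 in clf and 51.0 in lhp1, against 76.5 in wild type, and fell in pkl and lhp1. APK1, its close relative, fell in lhp1, at 51.4 FPKM in lhp1 against 64.7 in wild type, and so did the tryptophan synthase gene TSA1, at 88.7 FPKM in lhp1 against 119 in wild type. GTR3 rose in lhp1, at 41.2 FPKM in lhp1 against 24.6 in wild type, as did IGMT3, at 24.4 FPKM in lhp1 against 16.6 in wild type. GSH1, for glutathione synthesis, rose in pkl, at 314 FPKM in pkl against 239 in wild type.

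Myrosinases and the proteins that steer their products form the breakdown group. Of 9 tested genes, 1 rose and 4 fell in pkl (1 fell at q under 0.01), 3 rose and 0 fell in clf, and 4 rose and 3 fell in lhp1. TGG1, for the main myrosinase of guard cells and myrosin cells, had 775 FPKM in pkl, 1061 in clf and 647 in lhp1, against 1047 in wild type, and fell in pkl and lhp1. TGG2, for the second leaf myrosinase, had 134 FPKM in pkl, 504 in clf and 386 in lhp1, against 212 in wild type. It fell in pkl, where FAMA fell, and rose in clf and lhp1, where FAMA was not called. ESP, which directs breakdown towards nitriles, had 0.330 FPKM in pkl, 4.59 in clf and 2.58 in lhp1, against 1.18 in wild type, with a fall in pkl and rises in clf and lhp1. ESM1, which favours isothiocyanates, had 555 FPKM in pkl, 289 in clf and 230.3 in lhp1, against 361 in wild type, with a rise in pkl and a fall in lhp1. The nitrile specifier gene NSP5 rose in clf and lhp1, with 96.5 FPKM in pkl, 131 in clf and 179.7 in lhp1, against 86.2 in wild type, and NSP1 rose too, at 441 FPKM in lhp1 against 273 in wild type. PEN2, for an atypical myrosinase of indolic glucosinolates, fell in pkl, at 99.8 FPKM in pkl against 127 in wild type, and the transporter gene PEN3 fell in lhp1, at 273 FPKM in lhp1 against 448 in wild type.

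Among 7 other regulators, 2 rose and 1 fell in pkl, 2 rose in clf and 2 rose in lhp1. MYC2, for a jasmonate-responsive partner of the MYB factors, rose in all 3, with 22.6 FPKM in pkl, 32.4 in clf and 26.2 in lhp1, against 16.5 in wild type. MYC4, for a related partner, rose in pkl, with 20.0 FPKM in pkl against 15.4 in wild type, and OBP2, for a DOF factor that activates CYP83B1, fell there, at 31.1 FPKM in pkl against 39.2 in wild type; that call too was lost when p-values were adjusted within the table. WRKY33, described with PAD3, was the other rise in clf and lhp1.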

How the data were processed

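RNA-seq of whole seedlings gave 3 tables of gene-level Cuffdiff output, per the file headers, each comparing 1 mutant with wild type. Per the submitters' processing notes, the tools were TopHat with Cufflinks 2.1.1 and Cuffdiff 2.1.1, and the build was TAIR10. For each locus the authors deposited the FPKM of either group, a test statistic (a score), a p-value and a q-value. The number of tests behind the q-value, the strand setting and the depth of each library are unknown here. Samples were grouped by title. Values per library were not used here, so no model could be fitted and no value carries a replicate SD.

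A locus was called where its status was OK and its deposited q was under 0.05. Alternatives changed the q threshold, its adjustment, a minimum fold and FPKM, the pseudocount, centring and the handling of merged loci and shared genes. The implied standard error is the absolute log2 fold change over the normal quantile of the deposited p-value. At the smallest deposited p-value it is taken over 1.74 times the statistic, the median ratio of that quantile to the statistic. The quartiles of that ratio were 1.73 and 1.75 in pkl. Simulated data checked the arithmetic alone; whether these errors match the spread between libraries could not be tested. Medians used a pseudocount of 1. Calls over all genes were counted on the 17344 to 17484 tested single-gene loci. The starts in the files count from 0 and were raised by 1: that matched 10378 of 28809 annotated starts, against 132 without it. Coding sequences were aligned globally with Biopython 1.88. Sequences were credited to RefSeq on TAIR10.1, and coordinates of loci are those of TAIR10 in the files; a locus can extend beyond its gene. Members, lists and motifs were chosen with earlier results of these data known. By the naming rule all members, the mutated genes and every called gene of the other lists could be named.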

Additional observations from a re-analysis of the deposited data

How the results depend on the processing

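With the deposited q under 0.01, members that rose numbered 4 in pkl and 7 in clf, members that fell numbered 7 in pkl, aliphatic rises numbered 3 in pkl, 4 in clf and 2 in lhp1, and aliphatic falls 1 in pkl and 1 in clf. With at least 1.5-fold change, rises numbered 2 in pkl, 6 in clf and 5 in lhp1, and falls 7 in pkl and 3 in clf. By branch the 1.5-fold rule left 2 aliphatic rises in pkl, 4 in clf and 1 in lhp1, 2 aliphatic falls in pkl and 1 in clf, 0 indolic rises and 3 indolic falls in pkl, and 1 indolic rise and 0 indolic falls in clf. Fewer genes pass a stricter rule by construction. The other counts stayed within 1.5 times of those reported under these 2 rules, and so did all 24 counts when p was adjusted within each table, when loci needed a mean of 1 FPKM, when merged loci were counted, when the all-locus median was subtracted and when SUR1, UGT74B1 and GGP1 were moved into the branches. The branch medians moved by less than the typical implied standard error under a pseudocount of 0.1 and the other settings tried. Of 48 single calls, 15 missed q under 0.01 and 2 were lost when adjusted within the table; subtracting the median reversed none. For the further pathway genes, under rules chosen after seeing the data, q under 0.01 left 4 falls in pkl and 1 in clf, 1.5-fold left 2 rises and 4 falls in pkl and 1 fall in clf, and adjustment within the table left 1 fall in clf (ASA1 lost; OBP2 was lost in pkl); the other counts over the whole list stayed within 1.5 times. No paired analysis was possible because the tables hold 1 value per group, and leaving out single replicates was not run for the same reason. Implied standard errors had a median of 0.622 below 1 FPKM in pkl, against 0.142 at 10 to 100 FPKM, which limits AOP3, MYB76 and MYB122.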
